A study of Rattus norvegicus with 10 samples.

Results

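The livers of rats fed fish oil were compared with the livers of rats fed lard. Both diets held 42% of their energy as fat and were fed for 12 weeks, so the comparison asks, in the terms of the series' title, what the type of fat does at a fixed share of fat. The arrays were chosen by their titles: 2 fish oil arrays and 2 lard arrays, 4 of the 10 arrays in the series. All rats were male Wistar rats, an outbred laboratory strain, and all were fasted overnight before a piece of liver was frozen. The series' design text names the fish oil as cod liver oil, which carries vitamins A and D along with marine fatty acids. The remaining arrays came from rats on an olive oil diet and a coconut fat diet, each also with 42% of energy as fat, and on standard chow, for which no fat share was given, with 2 arrays for each. The labels do not say whether an array held the RNA of 1 rat or of several, nor that the arrays of a diet came from separate rats, so the p-values speak only of the spread among the arrays at hand. No transgene or drug was used in any group.

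Lard is rich in saturated and monounsaturated fatty acids. Fish oil is rich in very long, highly unsaturated omega-3 fatty acids, which are broken down first in peroxisomes and then in mitochondria. Unsaturated fatty acids are known ligands of PPAR-alpha, the nuclear receptor that switches on fatty acid oxidation in the fasted liver, and they are known to hold back SREBP-1, which switches on the synthesis of fatty acids, while its relative SREBP-2 drives that of cholesterol. Highly unsaturated fatty acids also oxidise readily, and the transcription factor Nrf2 is the known switch for enzymes that clear the products.

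The values are MAS5 signals, a linear scale of probe brightness that cannot be compared between genes. Differences are given as fish oil minus lard on the log2 scale, after 3.1 was added to every signal, which shrinks the differences of dim genes. A probe set, the group of probes that reports on a transcript, was called when its p-value, adjusted by Benjamini-Hochberg over all 18625 tested probe sets in limma, was under 0.05. Only called probe sets are said to have risen or fallen. Signals at or below 12.8, the highest signal of a bacterial control sequence, are called dim.

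Of the 18625 probe sets, 26 passed (0.14%), of which 15 rose with fish oil (0.0805%) and 11 fell (0.0591%). At an unadjusted p under 0.05, 2045 probe sets passed (11.0%), with 854 higher (4.59%) and 1191 lower (6.39%). Of the 26, 18 had 1 gene symbol, 3 had several symbols and 5 had none. Of the 8 without a single symbol, 5 rose, with differences of 1.22 to 4.26, and 3 fell, with differences of -4.27 to -1.70, of which 2 were dim on both fish oil arrays (at least 4.21-fold and 6.17-fold lower). These 8 are not named and stand in none of the gene lists, whose counts cover only probe sets with 1 symbol. The 10 named genes that rose were Acot1, Hdc, Tma16, Mybbp1a, Aldh1a1, Ubox5, Ces2c, Ehhadh, Ten1 and Slc25a15. The 8 that fell were Cyp4a8, Smim1, Spin2b, Cav2, Apoa4, Ptprs, Inhba and Impa2. The number of calls was 3 without lard replicate 1, 9 without lard replicate 2, 9 without fish oil replicate 2 and 18 without fish oil replicate 1. Hdc and Apoa4 were called under every alternative and with any of the 10 arrays left out. The other 16 named genes were not called when either lard array was left out.

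The second lard array stood apart. Its median signal was 36.7, against 28.7 to 31.8 on the other 9 arrays, and 25.9% of its probe sets were dim, against 28.3% to 30.2%. The 2 lard arrays correlated at 0.936 over all tested probe sets and the 2 fish oil arrays at 0.943, while the 4 pairs of a fish oil with a lard array lay between 0.922 and 0.935. Hepatocyte markers had summed signals of 59950.3 and 60245.4 on the lard arrays and 60190.3 and 63303.1 on the fish oil arrays, with none of the 9 measured markers at the dim level. The 3' to 5' signal ratio of actin, a sign of RNA integrity, was 2.15 and 2.1 on the lard arrays and 2.59 and 2.12 on the fish oil arrays.

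**Figure D1:**
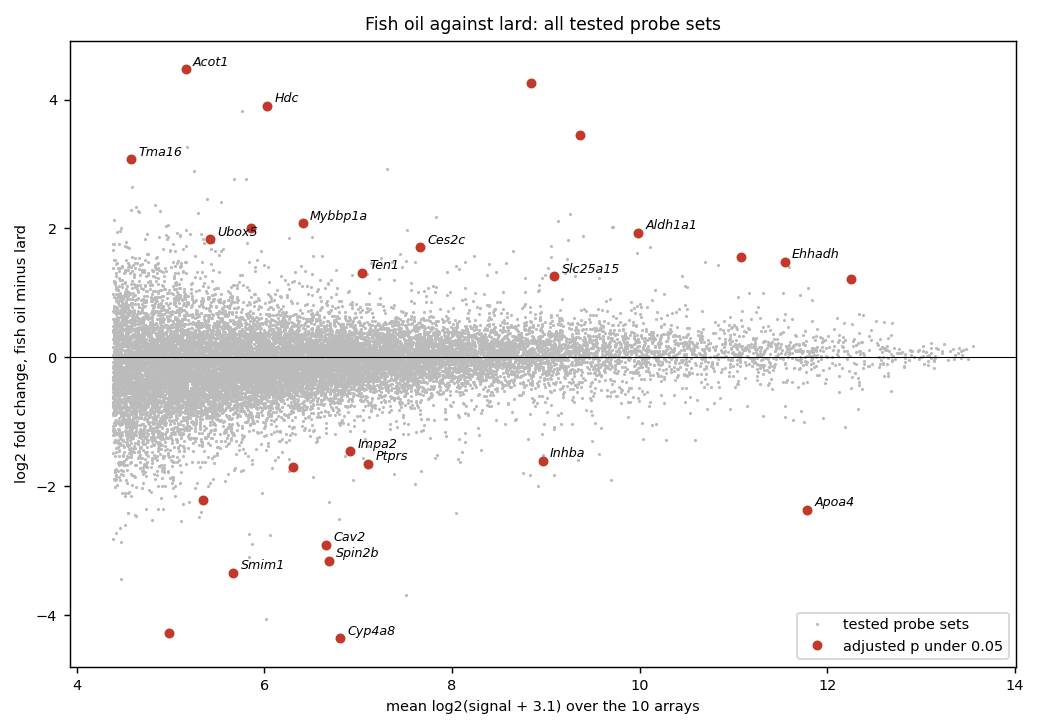
Log2 difference of fish oil minus lard (vertical axis) against the mean log2 signal over all 10 arrays (horizontal axis) for the 18625 tested probe sets, with the 26 called probe sets in red. The called probe sets lie on both sides of 0, 15 above and 11 below, and run from dim to bright signals.

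Promoter sequences are shown for 5 genes on which the account turns: Acot1 and Ehhadh, the oxidation genes that rose, Hdc and Apoa4, the 2 genes called under every setting, and Gstp1, the glutathione transferase with the smallest adjusted p. Each runs 5' to 3' along the gene's own strand from 250 bases before the start of transcription to 50 after it, as given by RefSeq on the GRCr8 build, in lower case. Capitals mark the start base and any motif match. The windows lie at chr6:109367024-109367323 (plus strand, Acot1), chr11:92746159-92746458 (plus strand, Ehhadh), chr3:134318655-134318954 (minus strand, Hdc), chr8:55435529-55435828 (plus strand, Apoa4) and chr1:210769656-210769955 (minus strand, Gstp1).
Acot1: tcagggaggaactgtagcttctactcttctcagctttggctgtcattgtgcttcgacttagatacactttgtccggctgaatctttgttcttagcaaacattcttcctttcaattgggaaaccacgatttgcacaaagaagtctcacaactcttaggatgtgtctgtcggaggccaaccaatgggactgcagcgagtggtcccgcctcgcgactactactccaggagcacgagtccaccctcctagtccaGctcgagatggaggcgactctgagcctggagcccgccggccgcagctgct
Ehhadh: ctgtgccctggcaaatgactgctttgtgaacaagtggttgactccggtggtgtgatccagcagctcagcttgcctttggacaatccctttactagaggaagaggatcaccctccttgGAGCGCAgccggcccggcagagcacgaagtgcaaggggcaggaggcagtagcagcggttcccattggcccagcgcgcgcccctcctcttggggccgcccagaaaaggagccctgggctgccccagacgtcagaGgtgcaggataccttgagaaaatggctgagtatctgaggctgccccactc
Hdc: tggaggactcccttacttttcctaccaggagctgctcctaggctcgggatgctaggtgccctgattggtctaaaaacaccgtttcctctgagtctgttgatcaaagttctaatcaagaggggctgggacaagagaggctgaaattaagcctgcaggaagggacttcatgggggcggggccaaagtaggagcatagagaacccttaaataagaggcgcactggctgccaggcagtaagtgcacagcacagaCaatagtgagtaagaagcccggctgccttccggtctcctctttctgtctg
Apoa4: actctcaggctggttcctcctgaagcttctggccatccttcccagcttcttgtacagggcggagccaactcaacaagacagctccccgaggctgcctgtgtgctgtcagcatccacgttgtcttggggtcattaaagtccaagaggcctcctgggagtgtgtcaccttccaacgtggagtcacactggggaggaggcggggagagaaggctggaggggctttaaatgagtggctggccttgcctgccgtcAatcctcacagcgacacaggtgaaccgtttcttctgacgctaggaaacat
Gstp1: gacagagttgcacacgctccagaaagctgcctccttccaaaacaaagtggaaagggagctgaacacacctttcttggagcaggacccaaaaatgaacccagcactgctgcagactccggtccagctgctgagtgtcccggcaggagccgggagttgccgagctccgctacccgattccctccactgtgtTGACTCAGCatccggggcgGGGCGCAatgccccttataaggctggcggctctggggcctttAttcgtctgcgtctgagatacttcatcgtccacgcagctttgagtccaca

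Each of the 18 named genes had a promoter among the 33469 in the table, and each window was searched on both strands for exact matches to 5 motifs. The PPAR element, 2 copies of AGGTCA with 1 free base between them, occurred in 0.0538% of all promoters and in 0 of the 18. The sterol element, ATCAC followed directly by CCCAC, occurred in 0.125% of all and in 0 of the 18. Exact matches this rare would seldom turn up among 18 genes, so these 2 results of 0 tell nothing about the named genes. The antioxidant element, TGACNNNGC, occurred in 12.1% of all and in 1 of the 18, Ptprs, and also in Gstp1, where it begins 61 bases before the start. The metal element, TGCGCNC, occurred in 14.1% of all and in 3 of the 18: Ehhadh (133 bases before the start, on the reverse strand), Mybbp1a and Ptprs, and it also lay in Gstp1, 42 bases before the start on the reverse strand, without overlapping the antioxidant element. The E-box, CACGTG, occurred in 6.42% of all and in 5 of the 18: Mybbp1a, Ptprs, Spin2b, Ten1 and Tma16. The windows of Acot1, Hdc and Apoa4 held no exact match to any of the 5 motifs. Inexact matches and sites outside the windows were not searched.

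Among the genes of fatty acid oxidation, Acot1 showed the largest rise. Acot1 is a cytosolic thioesterase that splits acyl-CoA into free fatty acid and coenzyme A, and is a textbook PPAR-alpha target. It read 18.3 and 29.6 on the lard arrays and 989.8 and 344.3 on the fish oil arrays, a rise of 4.47 (SE 0.56, adjusted p = 0.0152), or 22.2-fold. Both fish oil arrays lay far above both lard arrays but differed from each other, and without fish oil replicate 1 the adjusted p was 0.109. On the other diets it stayed between 1.5 and 22.0. Its chromosomal neighbour Acot2, which encodes the mitochondrial form of the enzyme, read 688.9 and 877.9 with lard and 1410.0 and 1212.2 with fish oil, a difference of 0.75 that did not pass (adjusted p = 0.234). Acot1 and Acot2 are related copies side by side on chromosome 6 (109367274 to 109375268 and 109341426 to 109352818, GRCr8), so probes may read both. Of the 9 thioesterases tested, 8 were above 0, with a median difference of 0.61 beside -0.03 for all 10470 genes, 4 had an unadjusted p under 0.05 (all higher, against 5.52% of all genes), and Acot1 alone was called. Among all 10470 genes by their brightest probe set, 9 were called higher (0.086%) and 6 lower (0.0573%). Acot8, the peroxisomal thioesterase, had 95.8 and 150.6 with lard and 199.9 and 231.1 with fish oil, a difference of 0.82.

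Ehhadh, the peroxisomal bifunctional enzyme that carries out the middle steps of beta-oxidation, read 2397.0 and 2526.4 with lard and 7370.0 and 6385.6 with fish oil. The rise was 1.48 (SE 0.16, adjusted p = 0.00525), or 2.79-fold, and the arrays of each diet lay close together. The adjusted p was 0.0789 without lard replicate 1 and 0.0512 without lard replicate 2. Of the 16 tested genes of peroxisomal oxidation and growth, 13 were above 0, with a median of 0.34. Ehhadh was called, and 6 had an unadjusted p under 0.05, all higher. Ech1, which rearranges double bonds of unsaturated fatty acids, read 2194.4 and 2169.5 with lard and 5095.8 and 3773.9 with fish oil (difference 1.01, adjusted p = 0.362). Decr2, the peroxisomal reductase for such double bonds, read 1155.5 and 1424.8 with lard and 2382.8 and 2147.3 with fish oil (difference 0.82). Pex11a, which drives peroxisome division, differed by 0.65, while catalase (Cat) differed by 0.05 and Acox3 by -0.19.

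In mitochondria, 19 of 21 oxidation genes were above 0, with a median of 0.33, and 10 had an unadjusted p under 0.05, all higher. None was called after adjustment, where the smallest adjusted p was 0.161. After quantile normalization the median of the mitochondrial list was 0.20 and that of the peroxisomal list 0.25. Eci1, an isomerase for unsaturated fatty acids, read 2390.3 and 2529.2 with lard and 5280.1 and 4579.8 with fish oil (difference 1.00, SE 0.30). Cpt2 of the carnitine shuttle read 650.9 and 626.0 with lard and 1039.8 and 982.4 with fish oil (difference 0.66, SE 0.15). The carnitine carrier Slc25a20 differed by 0.57 and the reductase Decr1 by 0.60. Cpt1a, the entry step of the pathway, differed by -0.01 with overlapping arrays. Of 5 ketone body genes, 3 were above 0, and Acat1 differed by 0.50 (2347.1 and 1900.5 with lard, 3112.3 and 2859.5 with fish oil). The median of the ketone list was 0.47, but 0.11 without lard replicate 2 and 0.22 without fish oil replicate 1.

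Among 22 other PPAR-alpha targets, 16 were above 0, with a median of 0.26, and the only call was a fall. Cyp4a8, a fatty acid hydroxylase of the Cyp4 family, read 177.6 and 320.7 with lard and 17.1 and 3.8 with fish oil, 1 of them dim. It fell by 4.36 (SE 0.54, adjusted p = 0.0151). Its second probe set read 85.8 and 146.4 with lard and 7.0 (dim) and 25.6 with fish oil and missed the threshold (difference -2.76, adjusted p = 0.0893). Its relatives went the other way in value: Cyp4a1 read 2852.5 and 2982.6 with lard and 5813.2 and 5820.1 with fish oil (difference 1.00, adjusted p = 0.284), and Cyp4a3 differed by 0.57. These family members are similar in sequence. Vnn1, a pantetheinase, differed by 1.57 (278.5 and 297.8 against 1034.1 and 715.0). The fatty acid transporter Cd36 differed by 1.45 (504.0 and 228.0 against 912.5 and 952.6), and neither was called. Fgf21, the fasting hormone, spread from 32.3 to 373.3 within the fish oil arrays, and Angptl4 and Pdk4 were likewise highest on fish oil replicate 1. The median of this list was 0.00 without fish oil replicate 1, 0.56 without fish oil replicate 2 and 0.10 without lard replicate 2.

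**Figure D2:**
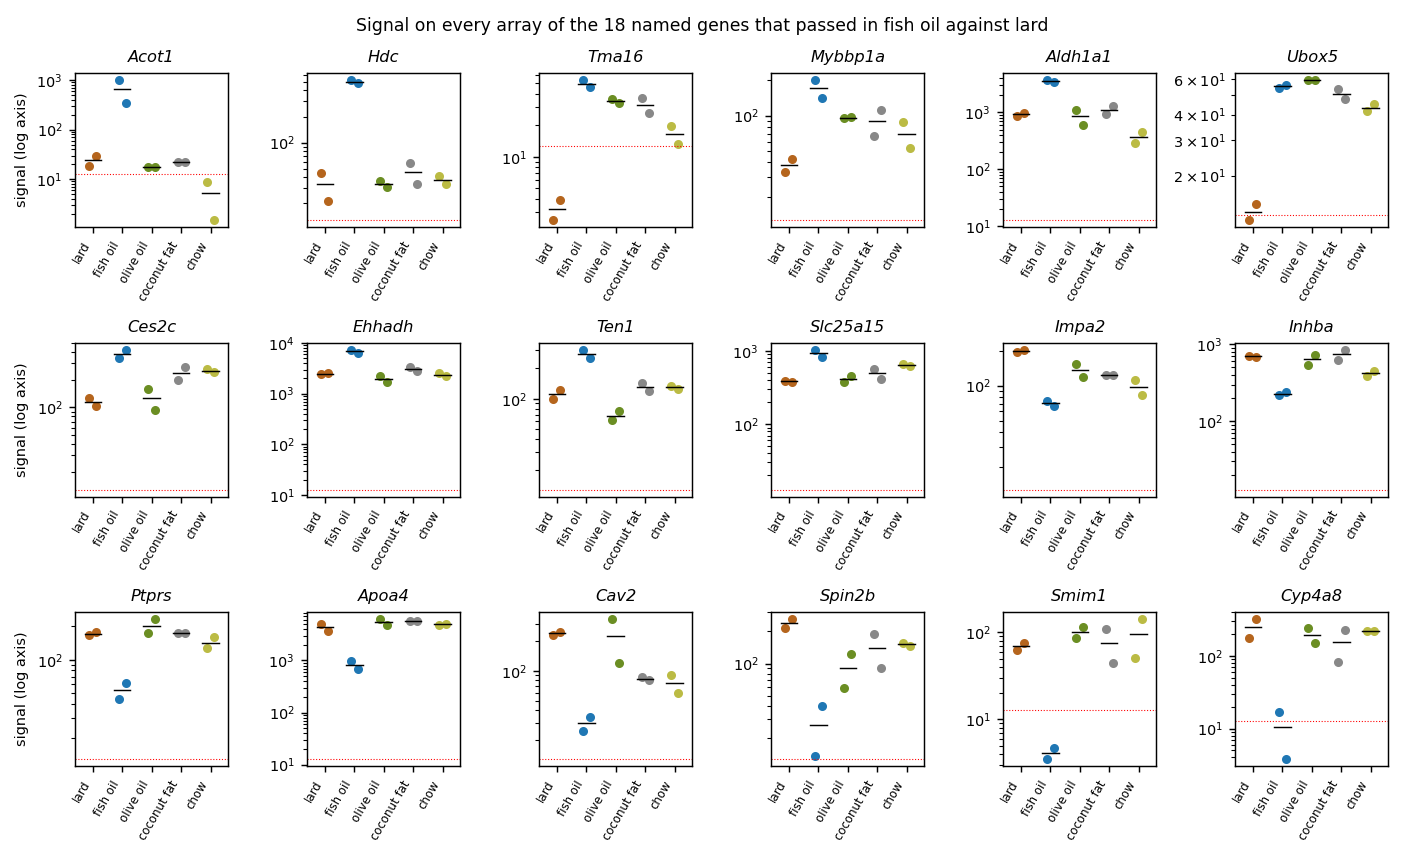
MAS5 signal (log axis) of each of the 18 named genes on the 10 arrays, by diet, with black bars at the group means and a red dotted line at the dim level of 12.8. For 17 of the 18 genes both fish oil arrays lie beyond all arrays of the other 4 diets, and for 5 genes both lard arrays do.

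Synthesis of fatty acids gave a split between the 2 fish oil arrays, and the 2 chow arrays split too. The list's median deviation from each gene's mean over the arrays was -0.99 and 0.10 with fish oil and -1.23 and 0.25 with chow. It was 0.51 and 1.14 with olive oil, 0.40 and -0.14 with coconut fat and 0.10 and -0.14 with lard. Of 20 tested genes, 6 were above 0 and the median was -0.39, but it was 0.16 without fish oil replicate 1 and -0.88 without fish oil replicate 2. Fasn, the fatty acid synthase, read 822.7 and 520.6 with lard and 59.6 and 753.4 with fish oil. So 1 fish oil array was far below both lard arrays and the other lay between them. On chow Fasn read 105.8 and 1096.8, on coconut fat 1841.8 and 579.6 and on olive oil 1386.1 and 3788.4. Srebf1, the gene of SREBP-1, read 1263.6 and 1162.2 with lard and 464.8 and 1436.2 with fish oil. For Srebf1, Acly and Scd, fish oil replicate 1 was likewise the lowest of the 4 arrays. Pnpla3, a lipid droplet hydrolase regulated by SREBP-1, was low on both fish oil arrays, with 168.4 and 209.6 for lard and 27.2 and 33.7 for fish oil (difference -2.52, SE 1.02, adjusted p = 0.415). It was also low on chow, at 11.2 and 49.0, and read 398.7 and 24.4 on coconut fat and 479.9 and 1767.4 on olive oil. Of its 2 other probe sets, 1 read 32.2 and 31.9 with lard and 1.3 and 6.8, both dim, with fish oil, or at least 2.5-fold lower. The other read 147.7 and 130.1 with lard and 1.4 (dim) and 13.0 with fish oil (difference -4.06). Scd2 differed by 1.04 (46.6 and 48.1 against 95.1 and 106.3), while its second tested probe set differed by 0.13 (33.6 and 41.6 against 42.3 and 40.3). None of the 20 was called.

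Cholesterol synthesis and uptake genes were lower in value with fish oil in 19 of 21 cases, and the median was -0.69. For 7 the unadjusted p was under 0.05, all lower, against 6.06% of all genes, and none was called. Tm7sf2, a sterol reductase of the pathway, read 440.5 and 598.3 with lard and 145.6 and 145.7 with fish oil (difference -1.80, SE 0.42, adjusted p = 0.167). Cyp51, a sterol demethylase, read 856.3 and 1208.0 with lard and 264.2 and 482.9 with fish oil (difference -1.50), and Msmo1, a sterol oxidase, read 285.2 and 470.2 against 102.5 and 142.5 (difference -1.57). Insig1, the sensor protein, read 1086.3 and 1742.6 with lard but 224.2 and 1406.9 with fish oil, so its groups overlapped. Fish oil replicate 1 was the lowest array for this list, with a median deviation of -0.82 from each gene's mean over the arrays, against -0.19 on replicate 2, and lard replicate 2 was the highest of the 4, at 0.39. Without fish oil replicate 1 the median of the list was -0.29, and without lard replicate 2 it was -0.46. Of the genes that export sterols, Abcg5 had wide arrays (29.8 and 45.3 against 152.4 and 73.9, difference 1.46) and Nr0b2, a repressor of bile acid synthesis, was lower (641.3 and 673.3 against 342.4 and 213.2, difference -1.27). Neither passed.

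Among 21 genes of lipoproteins, only Apoa4 was called. Apoa4 encodes an apolipoprotein carried on triglyceride-rich particles and on high-density lipoprotein. It read 5035.8 and 3603.2 with lard and 970.5 and 699.1 with fish oil. It fell by 2.37 (SE 0.20, adjusted p = 0.00176), or 5.16-fold, with a range from -2.61 to -2.12 as arrays were left out. On the olive oil, coconut fat and chow arrays it lay between 4772.8 and 6180.4, and the fish oil arrays were the lowest of the 10, followed by lard replicate 2. The other genes of the list had a median near that of all genes (-0.04 for the list against -0.03). Mttp and Apoe differed by 0.20 and 0.11.

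**Figure D3:**
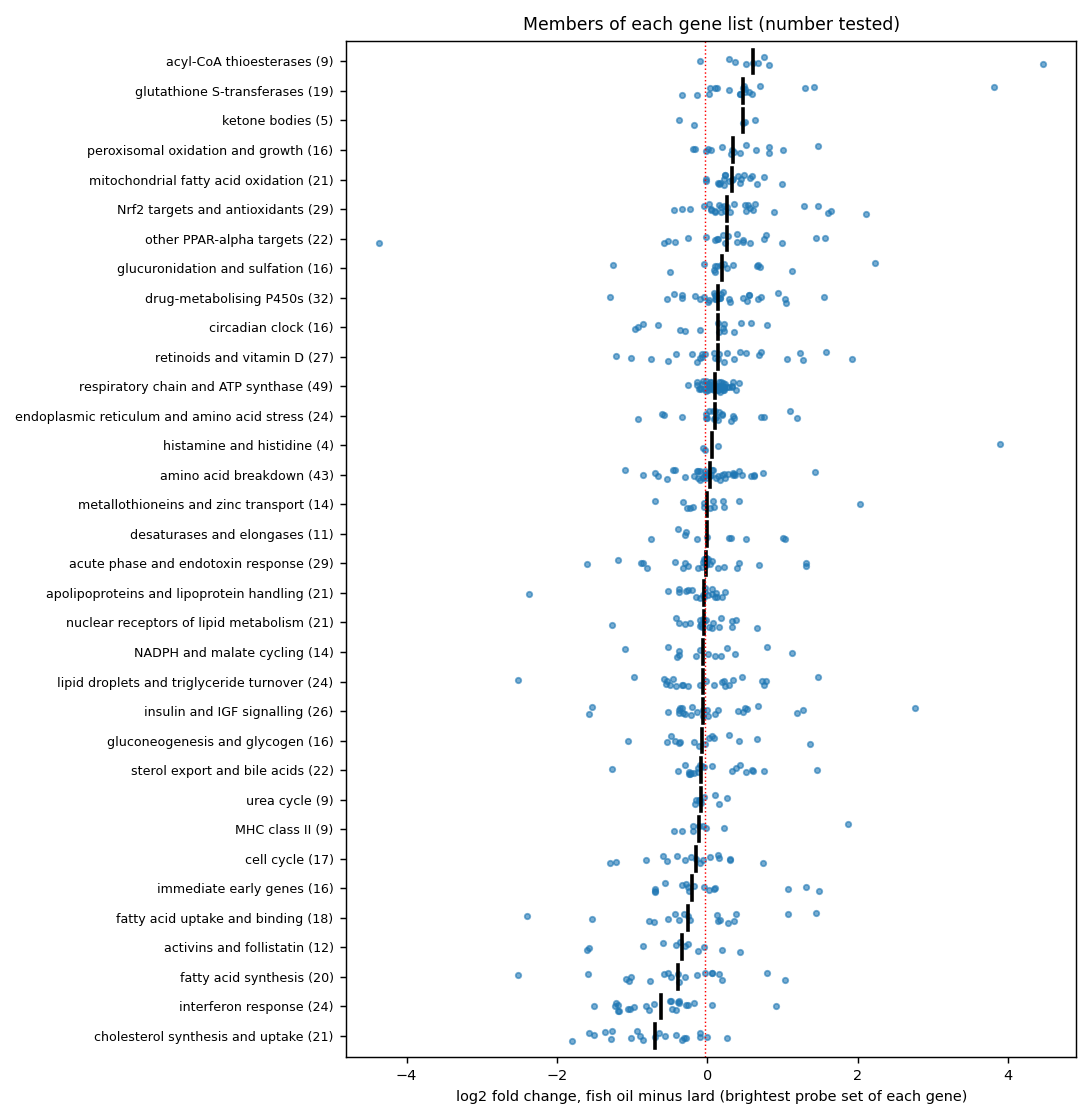
Log2 difference of fish oil minus lard for the tested members of each pathway list, each gene by its brightest probe set, with a black bar at the list's median and a red dotted line at the median of all 10470 genes (-0.03). The thioesterases (0.61), the glutathione transferases (0.47) and the ketone body genes (0.47) have the highest medians, and cholesterol synthesis (-0.69) and the interferon response (-0.61) the lowest.

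Of the retinoid and vitamin D genes, Aldh1a1 rose. Aldh1a1 oxidises retinaldehyde to retinoic acid and also clears aldehydes from oxidised lipid. It read 870.2 and 985.4 with lard and 3681.1 and 3417.8 with fish oil, a rise of 1.93 (SE 0.28, adjusted p = 0.0305), or 3.82-fold, and on the other diets it lay between 290.5 and 1278.5. Of 27 genes tested in this list 16 were above 0, with a median of 0.14. The median was 0.09 without lard replicate 1 and 0.06 after quantile normalization. In the higher direction 6 had an unadjusted p under 0.05, and 1 in the lower. Adh4, a retinol-oxidising alcohol dehydrogenase, read 556.9 and 467.7 with lard and 1471.8 and 1032.8 with fish oil (difference 1.27, adjusted p = 0.0898). Cyp26b1, which breaks down retinoic acid, differed by 1.58 (44.0 and 11.3, the latter dim, against 50.1 and 111.6), and Rdh16 by 1.23. The vitamin D receptor Vdr differed by -1.21 and the retinoic acid receptor Rara by -1.01 (126.5 and 195.3 against 69.0 and 84.9), neither called.

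Genes of detoxification were mostly higher in value. Ces2c, a carboxylesterase of the endoplasmic reticulum, read 125.0 and 104.3 with lard and 345.4 and 421.3 with fish oil, a rise of 1.71 (SE 0.25, adjusted p = 0.0305), or 3.28-fold. Chow arrays, at 257.7 and 240.6, and the coconut fat arrays, at 198.0 and 276.1, lay between the 2 diets. Of 19 glutathione S-transferases, which couple glutathione to reactive lipids and drugs, 17 were above 0 (median 0.47), 6 had an unadjusted p under 0.05 and none was called. Gstp1 read 181.0 and 211.4 with lard and 585.2 and 476.0 with fish oil (difference 1.42, adjusted p = 0.0537). Gsta3 read 40.3 and 17.4 with lard and 243.5 and 717.3 with fish oil (difference 3.82, SE 0.84, adjusted p = 0.147). The second fish oil array carried most of the list's shift: the median was 0.08 without it and 0.86 without the first. Several members of this family are similar in sequence, so their probes may share signal.

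Nrf2 targets and antioxidant enzymes were above 0 in 25 of 29 cases (median 0.26, or 0.15 without fish oil replicate 2), and 11 had an unadjusted p under 0.05, all higher. Nqo1, the quinone reductase, read 315.1 and 367.3 with lard and 739.7 and 1566.9 with fish oil (difference 1.65, adjusted p = 0.204). Akr7a3, an aldehyde reductase, read 350.5 and 302.1 against 815.8 and 2448.8 (difference 2.11, adjusted p = 0.125). Both genes were highest on the second fish oil array. Nfe2l2, the gene of Nrf2 itself, differed by -0.23, Keap1, its inhibitor, by -0.04, and Hmox1 by -0.34. Mt2A, a metallothionein that binds zinc and copper, read 792.8 and 896.5 with lard and 2700.3 and 4412.2 with fish oil (difference 2.03, adjusted p = 0.0898), while the 13 other tested genes of zinc handling lay between -0.69 and 0.42. Among glucuronidation and sulfation genes, 13 of 16 were above 0 (median 0.20), with Ugt2b1 at 423.1 and 522.9 against 1529.3 and 3222.8 (difference 2.23, adjusted p = 0.152). Of 32 P450 genes and their regulators 24 were above 0 (median 0.15), with Cyp2j4 at 302.0 and 590.7 against 1521.5 and 1017.7 (difference 1.55) and the male-typical Cyp2c11 at 0.12. After quantile normalization the median of the glucuronidation list and that of the P450 list were each 0.09.

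**Figure D4:**
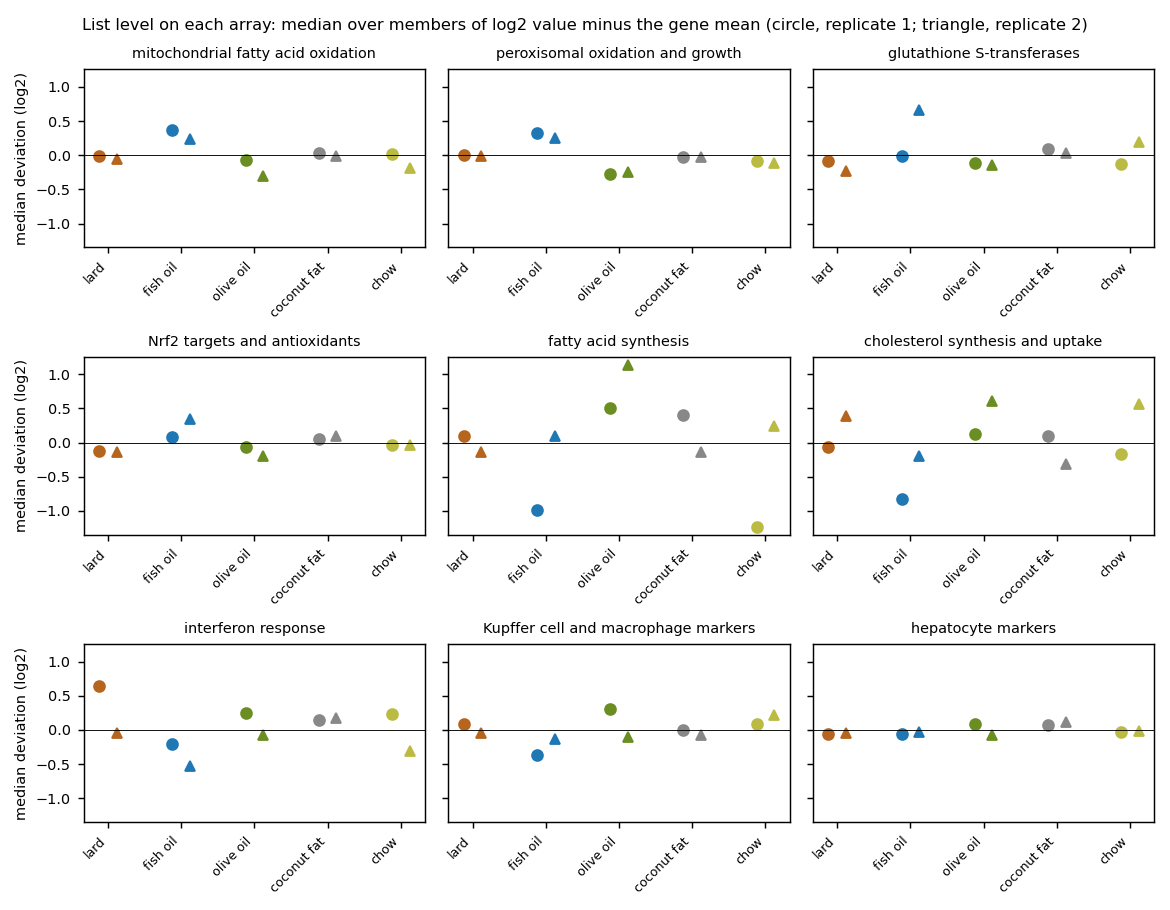
Median deviation (log2) of the members of 9 lists from each gene's mean over the 10 arrays, by diet, with a circle for replicate 1 and a triangle for replicate 2. The glutathione transferases lie at -0.01 and 0.66 on the 2 fish oil arrays. The fatty acid synthesis genes lie at -0.99 and 0.10 there and at -1.23 and 0.25 on the chow arrays. Mitochondrial oxidation lies at 0.37 and 0.24 on the fish oil arrays, above both lard arrays.

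Hdc encodes histidine decarboxylase, the source of histamine, and had the second-largest rise among the named genes. It read 45.1 and 21.0 with lard and 525.5 and 487.3 with fish oil, a rise of 3.90 (SE 0.35, adjusted p = 0.00176), or 14.9-fold. All 6 arrays of the other diets lay between 30.4 and 57.5. In liver tissue histamine is known from mast cells, so their markers were read beside it. Of the 8 markers of neutrophils and mast cells on the array, 4 passed the filter on dim signals, 1 of them above 0, and none was called. Their summed signals were 183.7 and 324.3 with lard and 178.3 and 162.3 with fish oil. Mast cell tryptase Tpsb2 read 48.2 and 57.5 with lard and 23.5 and 22.1 with fish oil, mast cell carboxypeptidase Cpa3 differed by 0.68 without a call, and Tpsab1 was dim on all 4 arrays. In the histidine pathway, the breakdown enzymes Hal, Uroc1 and Ftcd differed by -0.06, -0.03 and 0.15.

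Inhba, the beta A subunit of activins, which are growth-inhibiting hormones of the TGF-beta family, read 707.8 and 686.0 with lard and 218.3 and 236.8 with fish oil. It fell by 1.60 (SE 0.19, adjusted p = 0.0151), or 3.04-fold. Its second probe set read 78.2 and 96.9 against 27.1 and 32.0 (difference -1.47, adjusted p = 0.0898). Of 12 genes in the activin list, 2 were above 0 and the median was -0.33. Inhbe, an activin subunit made by hepatocytes, read 823.1 and 674.2 against 539.0 and 315.4 (difference -0.85), and the receptor gene Acvr1c read 41.9 and 21.2 with lard and 7.8 and 8.3, dim, with fish oil, or at least 2.33-fold lower (adjusted p = 0.298). Inhbc differed by 0.20 and follistatin (Fst) by -0.25.

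Ptprs, a receptor tyrosine phosphatase, read 166.3 and 175.6 with lard and 44.4 and 61.4 with fish oil and fell by 1.65 (SE 0.22, adjusted p = 0.0254). Its 3 other probe sets differed by -0.30, -0.77 and -0.90 and did not pass. Cav2, a caveolin of cell surface invaginations, read 227.7 and 249.6 with lard and 24.6 and 34.4 with fish oil and fell by 2.91 (SE 0.39, adjusted p = 0.0254). Its 3 other probe sets lay at -1.14, -1.53 and -1.52, none called, and Cav1, its usual partner, differed by 0.35. The olive oil arrays of Cav2 read 332.0 and 120.8, and the coconut fat and chow arrays lay between 59.8 and 91.0. Impa2, an inositol monophosphatase, read 195.3 and 203.6 with lard and 74.0 and 67.2 with fish oil, and fell by 1.46 (SE 0.21, adjusted p = 0.0305). Slc25a15, the ornithine carrier of the urea cycle, read 393.6 and 383.9 with lard and 1043.3 and 833.6 with fish oil on 1 of 5 tested probe sets, which rose by 1.26 (SE 0.18, adjusted p = 0.0305), while the 4 others lay between -0.10 and 0.40. The fatty acid transporter Slc27a4 read 71.5 and 51.0 against 5.7 (dim) and 13.4 (difference -2.40, adjusted p = 0.153).

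The remaining called genes have roles outside lipid metabolism. Tma16, a factor of ribosome assembly, read 2.5 and 3.9 with lard, both dim, and 53.6 and 45.9 with fish oil (adjusted p = 0.0364), or at least 3.88-fold higher. Mybbp1a, a nucleolar regulator of transcription, read 33.0 and 42.9 with lard and 201.0 and 142.6 with fish oil and rose by 2.08 (SE 0.32, adjusted p = 0.0364). Ubox5, a ubiquitin ligase, read 12.1 (dim) and 14.5 with lard and 54.3 and 56.0 with fish oil and rose by 1.83 (SE 0.29, adjusted p = 0.0423), while its second probe set differed by 0.58. Ten1, a telomere capping protein, read 98.7 and 122.8 with lard and 304.1 and 253.2 with fish oil and rose by 1.31 (SE 0.21, adjusted p = 0.0483). These calls depended on the processing. Of the alternatives that kept all arrays and tested the gene, Ten1 passed under 6 of 11, Tma16 under 7 of 10 and Ubox5 under 5 of 10. Spin2b, of the spindlin family of histone readers, read 214.9 and 258.8 with lard and 13.7 and 39.8 with fish oil and fell by 3.15 (SE 0.47, adjusted p = 0.0305). Smim1, a small protein of the red cell membrane, read 63.2 and 76.5 with lard and 3.5 and 4.7 with fish oil, both dim (adjusted p = 0.0305), or at least 5.43-fold lower. Red cell and platelet markers were also lower in value with fish oil: the 6 markers summed to 7574.4 and 7382.0 with lard and 4410.2 and 5964.2 with fish oil, with beta-globin (Hbb) at 6989.8 and 6716.3 against 4115.5 and 5569.6. Their part in the result for Smim1 was not tested.

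Which of the diets stood out differed between the named genes. Both fish oil arrays lay beyond all 8 other arrays for 17 of the 18, a description that follows in part from how the genes were chosen, against 8.06% of all tested probe sets. This is read on the probe set by which each gene was named. On the brightest probe set of Cav2 (51.9 and 71.6) and of Slc25a15 (1084.8 and 995.5) the fish oil arrays lay among those of the other diets. The same held for 1 probe set of Ptprs (204.4 and 201.1). Both lard arrays lay beyond all 8 others for 5: Impa2, Mybbp1a, Spin2b, Tma16 and Ubox5, against 6.52% of all. Ubox5 was the gene where this held for lard alone. Its olive oil, coconut fat and chow arrays read 41.5 to 59.0, around the fish oil values of 54.3 and 56.0 and above the lard values of 12.1 and 14.5. Fish oil against the mean of olive oil and coconut fat gave a difference of 0.01 for Ubox5, and lard against the same mean gave -1.82. This rests on 1 of its 2 probe sets: the other read 21.3 and 24.6 with lard, 36.8 and 34.8 with fish oil and 18.2 to 48.2 on the other diets. For Ehhadh the 2 values were 1.49 and 0.01, for Aldh1a1 1.91 and -0.02, for Inhba -1.56 and 0.04 and for Acot1 4.69 and 0.22. Mybbp1a lay between, with 0.87 and -1.21, as did Spin2b with -2.02 and 1.14. For Tma16 the values were 0.58 and -2.50, so the lard arrays stood further off. Both were dim, so the size of the -2.50 is uncertain. These comparisons share the fish oil or the lard arrays with the main one. Over all probe sets, fish oil against olive oil and coconut fat gave 57 calls (0.306%, 27 higher and 30 lower), and lard against them gave 0 in limma, with 1170 at an unadjusted p under 0.05 (6.28%).

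Interferon response genes were lower in value with fish oil. Of 24 interferon response genes, 2 were above 0 and the median was -0.61. For 4 the unadjusted p was under 0.05, all lower, and none was called. Psmb8, a subunit of the immunoproteasome, read 865.2 and 505.5 with lard and 235.6 and 225.5 with fish oil (difference -1.51, adjusted p = 0.112). The GTPase Igtp read 483.3 and 372.5 against 209.0 and 157.3 (difference -1.21, adjusted p = 0.0618). Of these 4 arrays, lard replicate 1 was the high one for classic antiviral genes: Isg15 read 195.7 and 36.4 with lard and 37.0 and 42.1 with fish oil, and Oas1a 311.1 and 65.5 against 93.7 and 50.0. The list's median was -0.30 without lard replicate 1. Of 11 Kupffer cell and macrophage markers 2 were above 0 (median -0.30, or -0.17 without lard replicate 1 and -0.18 without fish oil replicate 1). The sum of these markers was 4960.8 and 4330.6 with lard and 3596.4 and 4073.1 with fish oil, with no marker dim on all 4 arrays. Lymphocyte markers summed to 317.0 and 349.1 with lard and 225.9 and 258.0 with fish oil, with Cd3d and Cd79b dim on all 4 arrays. Their median difference was -0.49, but 0.06 without fish oil replicate 1, -0.16 without fish oil replicate 2 and -0.26 without lard replicate 1. Other marker sums were higher in value with fish oil. Sinusoidal endothelial markers summed to 2276.9 and 2548.8 with lard and 2905.1 and 2976.1 with fish oil, and cholangiocyte markers to 782.7 and 952.5 against 959.5 and 1033.0. The median was 0.21 over 9 tested endothelial genes, of which 7 were above 0, and 0.26 over 4 tested cholangiocyte genes. Without lard replicate 1 these medians were 0.07 and -0.05. Pancreatic acinar markers summed to 225.5 and 258.5 against 401.3 and 410.7, with Cela1 at 87.5 and 154.8 against 257.0 and 318.8. Cela1 was the only 1 of 3 tested acinar markers above 0, and their median was -0.05. Prss1 differed by -0.31 and Cpb1 by -0.05, and Cel was dim on all 4 arrays. The part of any cell type in the interferon values was not tested. In whole tissue fewer cells of a type and less RNA per cell cannot be told apart.

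Among acute phase and endotoxin response genes, the plasma proteins were close to even, with fibrinogen (Fgb) at -0.02, haptoglobin (Hp) at -0.01 and complement C3 at -0.04. The interleukin-1 receptor Il1r1 read 548.7 and 433.5 with lard and 264.7 and 264.3 with fish oil (difference -0.88, adjusted p = 0.0839). Cd14, the endotoxin co-receptor, went the other way in value, with 422.4 and 579.1 against 1186.8 and 1284.8 (difference 1.31, adjusted p = 0.0898). Its chow arrays, at 1100.3 and 1044.6, lay near the fish oil values, while its olive oil and coconut fat arrays read 237.4 to 427.6. Slpi, a protease inhibitor, read 262.5 and 174.1 against 58.3 and 80.8 (difference -1.60, adjusted p = 0.443). On chow Slpi read 6.5 and 2.6, on coconut fat 168.3 and 21.3 and on olive oil 151.7 and 289.3. Of the 29 tested, 10 were above 0 and none was called.

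In sugar and amino acid metabolism the list medians lay near 0, with single genes apart from 0 in both directions. Of 43 amino acid breakdown genes 23 were above 0 (median 0.04, with -0.02 after quantile normalization and -0.08 to 0.18 as 1 array was left out), 7 had an unadjusted p under 0.05 in each direction and none was called. The asparaginase Aspg read 339.4 and 310.4 with lard and 172.3 and 132.0 with fish oil (difference -1.09, adjusted p = 0.0898). In the gluconeogenesis and glycogen list, Ppp1r3b, a glycogen-targeting subunit, read 1589.0 and 1609.2 against 702.6 and 847.2 (difference -1.05, adjusted p = 0.284), and Pfkfb1, a regulator of glycolysis, read 141.8 and 237.4 against 377.2 and 610.7 (difference 1.37). The insulin receptor substrate Irs3 read 117.1 and 155.8 against 30.5 and 61.4 (difference -1.57). In the endoplasmic reticulum list, with 18 of 24 above 0 (median 0.11, or 0.21 without fish oil replicate 2), the chaperone Hsp90b1 read 1350.8 and 1161.5 against 2157.8 and 1966.1 (difference 0.72, adjusted p = 0.0898) and the transcription factor Xbp1 922.2 and 1131.7 against 2406.8 and 2000.7 (difference 1.10). Respiratory chain genes were above 0 in 38 of 49 cases with a median of only 0.11, which was 0.02 after quantile normalization, 0.03 without fish oil replicate 2 and 0.21 without fish oil replicate 1.

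**Figure D5:**
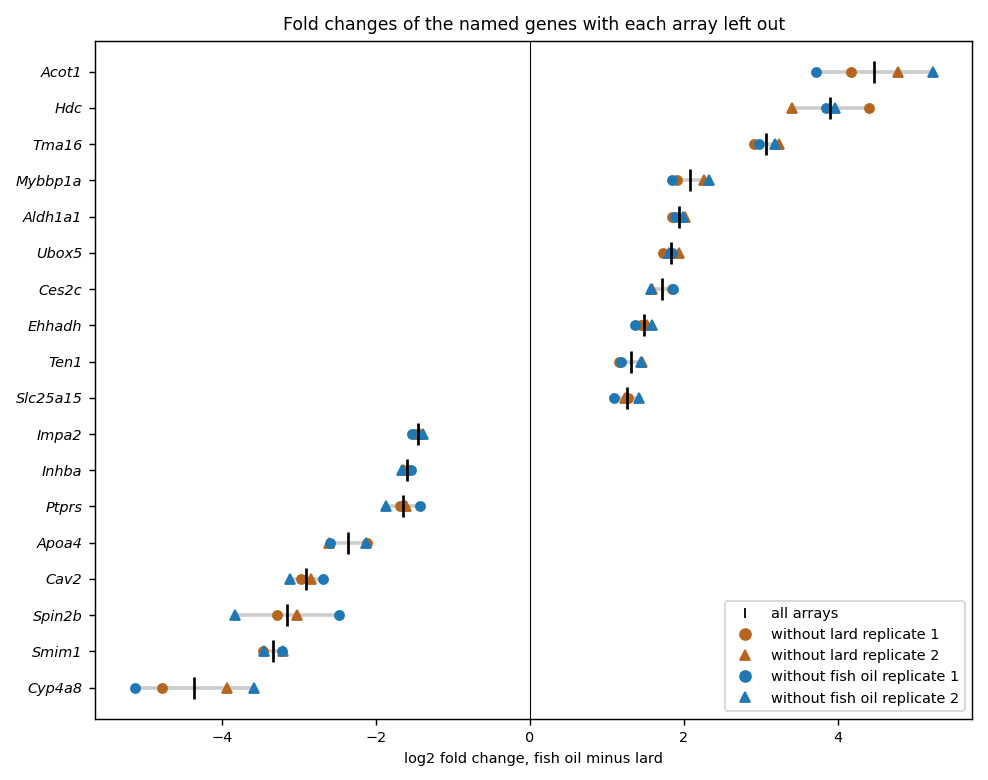
Log2 difference of fish oil minus lard for each of the 18 named genes with all arrays and with each of the 4 fish oil and lard arrays left out in turn. Each gene keeps its sign, with Hdc between 3.40 and 4.40 and Apoa4 between -2.61 and -2.12.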

How the data were processed

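Liver RNA from 10 samples, 2 for each of 5 diets, was measured on Affymetrix rat arrays, 1 array per sample. The deposited table holds MAS5 signal intensity on a linear scale, per the submitters' processing notes, and the software version is not given in the sources used here. The 2% trimmed mean of each array was 100.0 to 100.1, so no further scaling was applied. Of 31099 probe sets, 57 controls were removed, and of the remaining 31042 the 40% with the lowest mean log2(signal + 3.1) were left out (12417, below a signal of about 17.8), with the offset of 3.1 taken at the 10th percentile. Symbols came from the platform annotation: 20826 probe sets had 1, 436 several and 9780 none, and 0 symbols were updated.

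In limma 3.58.1 (R 4.3.3), a linear model gave each of the 5 diets its own mean over the 10 arrays, with an intensity trend (5 residual and 5.96 prior degrees of freedom). The number of arrays limits the precision. A group with both arrays at or below 12.8, the highest signal of 3 bacterial trp control probe sets, was called dim, and a fold change against it is the bright group's geometric mean over 12.8. Other folds are on the log2(signal + 3.1) scale. The named genes are the up to 15 genes with the highest and the 15 with the lowest difference among called probe sets with 1 symbol and no overlap between the diets, each by its probe set with the smallest p. From each list up to 4 members that passed, or otherwise 2 with the largest difference, were followed through the alternatives. Not all of these members, nor all of the lists, are described in the text. Further list members are given for their role and were picked after their values were seen. Lists (34 of pathways, 10 of cell markers, 889 genes, of which 773 were on the array and 696 tested) use each gene's brightest probe set and are described by counts and medians, with no test. The comparison, the lists and the promoters shown were chosen with earlier results of these data known. The fit was tested on simulated data, in which the smaller changes were mostly missed and more of the calls were false than the threshold names. Promoters are from RefSeq (GRCr8) and were matched by symbol.

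Alternatives were quantile normalization, a shift to 1 common 75th percentile, another offset, a floor, no or a stricter dim filter, no or a robust trend, a block on the replicate number, a fit restricted to the groups in a comparison, an adjusted p of 0.10, the smallest-p probe set of a gene, and leaving out every array once.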

Additional observations from a re-analysis of the deposited data

How the results depend on the processing

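The 26 calls for fish oil against lard became 17 with no dim filter, 7 with no intensity trend, 44 when only the fish oil and lard arrays were fitted and 54 at an adjusted p of 0.10, and stayed between 21 and 31 under the other planned settings. Leaving out 1 array gave 3 to 29 calls, with 3 without lard replicate 1, 9 without lard replicate 2, 9 without fish oil replicate 2 and 18 without fish oil replicate 1. In these fits the lone array of a diet is assumed to vary like the other diets. The 57 calls for fish oil against olive oil and coconut fat became 4 with no intensity trend and 139 at 0.10, and leaving out 1 array gave 9 (fish oil replicate 2) to 87 (olive oil replicate 2), with 25 without either lard array, 28 without coconut fat replicate 1, 36 without fish oil replicate 1 and 86 without either chow array. The 0 calls for lard against olive oil and coconut fat became 3 with quantile normalization, 1 with the 75th percentile shift, 2 with no intensity trend and 4 at 0.10, and leaving out 1 array gave 0 to 3, with 3 without lard replicate 2 and 1 without coconut fat replicate 2. The cause of these changes was not tested.

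With the replicate number as a block the fit gave 24 calls (12 higher and 12 lower, 21 of them among the 26). The deviations of same-numbered fish oil and lard arrays correlated at -0.002 over all tested probe sets. The other pairs of diets lay between -0.033 and 0.076. So the numbers showed no pairing over all probe sets, which does not exclude one for some of them. For fish oil against olive oil and coconut fat the block gave 49, and for lard against them 0.

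With 1 array left out, 6 of the list values followed through the alternatives changed sign, none of which had passed. Bdh2 ranged from -0.04 (without lard replicate 2) to 1.31. Without lard replicate 1, Slc25a15 on its brightest probe set was 0.05 (lowest value -0.25), RT1-Bb -0.05 (highest 3.78) and Spp1 -0.13 (highest 3.45). Without fish oil replicate 1, Fasn was 0.20 (lowest -3.39) and Cfd 0.16 (lowest -0.58). With 2 arrays per diet, small differences are not detectable, and dim signals have no order.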

Other observations

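The genes below were picked after their values were seen. Cish, a brake on growth hormone and cytokine signalling, read 24.3 and 19.5 on the lard arrays and 177.0 and 157.4 on the fish oil arrays, a difference of 2.77 (SE 0.60, adjusted p = 0.146 in limma). Its second probe set read 20.7 and 12.6 (dim) against 140.6 and 139.0 (difference 2.89). Socs2, a related brake and a member of the insulin and IGF signalling list, read 8.0 (dim) and 37.0 with lard and 247.1 and 78.7 with fish oil (difference 2.76, adjusted p = 0.332). Neither gene passed.

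Hacl1, the peroxisomal lyase of alpha-oxidation, which removes 1 carbon from branched and hydroxylated fatty acids, read 1295.4 and 1214.6 with lard and 4445.6 and 2579.8 with fish oil (difference 1.43, SE 0.24, adjusted p = 0.0555). The purine genes Gart and Hprt1 also lay close to the threshold. Gart, of purine synthesis, read 45.8 and 41.1 against 121.4 and 117.3 (difference 1.40, adjusted p = 0.0652), while its second probe set read 10.9 (dim) and 31.0 against 41.5 and 40.5 (difference 1.01, adjusted p = 0.488). Hprt1, of purine salvage, read 794.6 and 869.2 against 1580.9 and 1436.7 (difference 0.86, adjusted p = 0.0652). Nat8, an acetyltransferase that finishes mercapturic acids from glutathione conjugates, read 91.5 and 137.9 against 693.1 and 292.2 (difference 1.97, adjusted p = 0.14).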
